A study of Homo sapiens with 9 samples.

Results

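The cytosolic ribosomal protein genes code for the protein part of the 80S ribosome, which reads mRNA in the cytoplasm. They were followed in GIST-T1 (T1), an established human gastrointestinal stromal tumor line. It carries an activating deletion in an exon of KIT and responds to imatinib, a KIT inhibitor. Members were chosen by symbol, as RPL or RPS with a number and at most 1 letter A or X, plus RPLP0, RPLP1, RPLP2 and RPSA. Pseudogenes and RPS6K kinases were left out. This gave 77 genes, 46 of the large and 31 of the small subunit, of 61209 rows in the count table, and all 77 were among the 16976 genes that passed the filter on low counts.

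Polyadenylated RNA was sequenced in 9 libraries. In 3 libraries T1 cells had received siRNA against ESRRA, the gene of estrogen-related receptor α (siERRα). In 3 more they had received non-target siRNA and 50 nM imatinib (called imatinib here), and in the last 3 non-target siRNA alone (siNC). All cells went through Lipofectamine transfection and were harvested at 48 h, in 1 cell line, so that every group shares the transfection and the genotype. Sample numbers run from S1 to S3 for siNC, S4 to S6 for siERRα and S16 to S18 for imatinib. What these numbers stand for is not given in the labels, so a difference tied to them cannot be told apart from the treatment. Whether replicate libraries stem from separate cultures is not stated in the labels, and p-values therefore measure the spread between libraries alone. In bulk RNA, fewer cells of a type and less RNA per cell cannot be told apart.

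The targeted transcript was lowest in siERRα libraries. It was also called lower in imatinib than in siNC libraries (log2 fold change -0.37, edgeR adjusted p = 0.00383). ESRRA had 1.40, 0.757 and 1.34 CPM (counts scaled to a common library size after TMM normalization) in siERRα libraries and 30.4, 32.0 and 35.6 CPM in imatinib libraries, against 40.7, 44.7 and 40.9 CPM in siNC libraries. Library totals ran from 37527236 to 49363002 counts. The 9 GIST markers were all tested and summed to between 3944 and 4272 CPM in every library, before TMM scaling. Single markers did change. With imatinib 6 of 9 were higher and 2 lower, against 21.4% and 20.3% of all tested genes. With siERRα 4 were higher and 0 lower, against 11.4% and 12.6%. On the same scale, 8 epithelial markers summed to between 8.96 and 12.6 CPM and 8 leukocyte markers to at most 1.08 CPM. The share of counts from mitochondrially encoded genes was 0.989% ± 0.0433 in siERRα libraries and 1.52% ± 0.0359 in imatinib libraries, against 0.925% ± 0.0726 in siNC libraries (SD, n = 3 each). Without these counts the member share differed by -0.0994 percentage points for siERRα against siNC (exact permutation p = 0.5) and by 0.278 for imatinib against siNC (p = 0.2), where the differences over all counts were -0.101 and 0.245.

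As background, ribosomal proteins are made in nearly equal numbers and join ribosomal RNA in the nucleolus, where biogenesis factors fold and trim the particles. Their mRNAs are among the most abundant in a growing cell. Most start with a cytosine and a run of pyrimidines, the terminal oligopyrimidine (TOP) tract, through which mTOR signaling and LARP1 set how well they are translated, so that growth signals act on these genes largely after transcription. KIT signals through the PI3K and mTOR pathway in GIST cells. A free pool of RPL5 and RPL11 with 5S ribosomal RNA binds MDM2 when ribosome assembly fails.

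The start-site sequences are shown for members on which the comparisons turn. Each run covers the 15 bases before and the first 15 bases after the annotated start (RefSeq, GRCh38.p14), 5′ to 3′ on the coding strand, and capitals mark CTTTC or CTTTT, a pyrimidine core typical of TOP starts. RPL26, RPL35A and RPS27 were called in the knockdown comparison.
RPL26: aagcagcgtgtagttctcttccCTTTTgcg
RPL35A: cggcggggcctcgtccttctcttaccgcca
RPS27: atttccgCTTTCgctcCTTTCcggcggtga
RPL22, RPL13A, RPLP2 and RPS4X were called higher with imatinib.
RPL22: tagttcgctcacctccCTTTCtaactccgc
RPL13A: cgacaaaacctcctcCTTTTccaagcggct
RPLP2: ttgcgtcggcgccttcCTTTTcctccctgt
RPS4X: gcagtctccagccccaatttctacgcgcac
RPL24 and RPS26 were called lower with imatinib.
RPL24: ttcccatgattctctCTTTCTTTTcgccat
RPS26: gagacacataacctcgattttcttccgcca
The windows lie at chr17:8383179-8383208 (minus strand) for RPL26, chr3:197950175-197950204 (plus) for RPL35A and chr1:153990747-153990776 (plus) for RPS27. They lie at chr1:6199581-6199610 (minus) for RPL22, chr19:49487593-49487622 (plus) for RPL13A, chr11:809952-809981 (plus) for RPLP2 and chrX:72277234-72277263 (minus) for RPS4X. Those of RPL24 and RPS26 are at chr3:101686704-101686733 (minus) and chr12:56041903-56041932 (plus). RPS26, RPS4X and RPL35A hold neither core in these 30 bases, though RPL35A has a run of 10 pyrimidines at its start.

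Promoters were found in the RefSeq table for 62 of the 77 members. CTTTC or CTTTT stood in the 30 bases around the start of 40 of the 62 (64.5%), against 7.56% of 27305 promoters in the table. Over 300 bases (250 before and 50 after the start, both strands), CCGGAAG, a core bound by ETS factors, was found in 33.9% of members and 10.7% of all promoters. AAGATGGC, a YY1 core, was found in 9.68% of members and 3.03% of all promoters, and the E-box CACGTG in 4.84% of members and 7.43% of all promoters. AAGGTCA, the core of the element that estrogen-related receptors bind, was found in 3.23% of members and 3.97% of all promoters. The longer element TCAAGGTCA, which contains that core, was found in 0 of 62 member promoters and in 0.359% of all promoters. These matches describe letters in a window only.

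Member genes made up a similar, small part of each library. Their summed share of counts was 4.63%, 4.60% and 4.89% in siERRα libraries and 4.78%, 5.33% and 5.05% in imatinib libraries, against 4.75%, 4.99% and 4.69% in siNC libraries. The 95% Wilson interval of each share was at most 0.00715 percentage points wide on either side, for counting error only, since reads without molecular identifiers are not independent molecules. The 3 groups overlapped, with the highest value in imatinib replicate 2.

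The mean share was 4.71% ± 0.162 in siERRα libraries and 5.05% ± 0.276 in imatinib libraries, against 4.81% ± 0.159 in siNC libraries (SD, n = 3 each). By two-sided exact permutation tests the difference was -0.101 percentage points for siERRα against siNC (p = 0.5) and 0.245 for imatinib against siNC (p = 0.2), where 3 against 3 libraries can give no p under 0.1. Without imatinib replicate 2 the second difference was 0.107 percentage points. The ratio of large to small subunit counts was 1.29 ± 0.016 with siERRα and 1.34 ± 0.0112 with imatinib, against 1.33 ± 0.00908 in siNC libraries. It was below siNC in all 3 siERRα libraries (exact p = 0.1, the smallest possible).

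**Figure D1:**
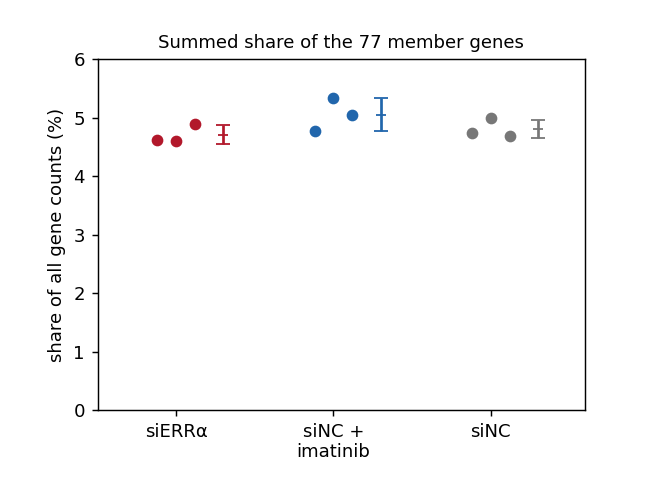
Share of all gene counts (%) taken by the 77 cytosolic ribosomal protein genes in each library (points), with the mean ± SD of 3 libraries beside them, for siERRα, siNC with imatinib and siNC. The means are 4.71%, 5.05% and 4.81%, and the groups overlap.

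Levels between genes were compared per transcript length (TPM over all genes, length of the canonical GENCODE transcript), and the order depended on that length. In siNC libraries RPS27, a zinc finger protein of the small subunit, led with 5095 ± 201 TPM, followed by RPL8, next to the peptidyl transferase center, with 4627 ± 184 TPM and RPS18 with 4397 ± 149.8 TPM (SD, n = 3). These neighbors were closer than the sum of their SDs in the case of RPL8 and RPS18. RPS27 ranked 1.0, 3.0 and 2.0 of 77 by canonical, exon-union and coding length, and RPL8 ranked 2.0, 2.0 and 3.0. RPL41, the smallest ribosomal protein, ranked 52.0, 20.0 and 1.0, and RPL37 ranked 71.0, 58.0 and 4.0, with a canonical model 7573 bases long. Of the 10 highest members by canonical length, 7 were also among the 10 highest by exon union and 5 by coding length, a scale added after seeing the data.

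At the low end the order did not move. RPL22, RPL17, RPS10 and RPL36A held ranks between 73 and 77 on all 3 scales. RPL22 had 35.3, 33.7 and 34.4 CPM in siNC libraries, while 4 members, RPL17, RPS10 and RPL36A among them, averaged under 10 CPM in every group, down to 0.537, 0.611 and 0.556 CPM for RPL36A. RPL17, RPS10 and RPL36A share 96.9%, 84.0% and 43.8% of their exon bases with another annotated gene on the same strand, such as the read-through RPL17-C18orf32. How the counting treated reads that fit both genes is not given in the sources used here, so the values of the members under 10 CPM are uncertain. The other 73 members averaged between 34.5 and 2144 CPM in siNC libraries, with a median over all 77 of 519.6 CPM.

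Within a group the members were measured tightly. Over the 73 members at 10 CPM or more, the median coefficient of variation between libraries was 5.09% in siERRα, 6.06% in imatinib and 3.29% in siNC libraries. Of the 77 members, 21 share no 100-base stretch of their canonical transcript with another annotated gene, and 12 share at least 50 percent. RPL37, RPL35A, RPL30, RPL8, RPS29, RPS4X, RPLP2 and RPL28 are among the 21, while RPL26 shares 60.6% and RPS27 61.7% of their stretches. How shared sequence bears on these values was not tested.

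The first comparison asked what loss of ERRα did to these genes. Few of them moved. Of 77 members, 2 were higher and 5 lower in siERRα than in siNC libraries (edgeR quasi-likelihood test, Benjamini-Hochberg adjusted p under 0.05 over all genes), where 23.9% of all tested genes were called, 11.4% higher and 12.6% lower. Among the 2365 genes that average at least 100 CPM, 21.3% were called higher and 14.3% lower. The median log2 fold change of the members was 0.00 and that of all genes 0.01, and 54 of 77 members were within 0.1 of zero. The siERRα libraries lay wholly above siNC for 7 members and wholly below for 11, where 19.3% of all genes lay above and 19.3% below.

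RPL26 fell most. This protein sits beside the peptide exit tunnel of the large subunit. RPL26 had 104, 129.9 and 108 CPM in siERRα libraries, against 192, 167 and 181 CPM in siNC libraries (log2 fold change -0.66 ± 0.08, edgeR adjusted p = 1.16e-05, SE over the fit). All 3 knockdown values were below all 3 control values. The gene lies at chr17:8377516-8383213 (GRCh38, GENCODE release 44), and a gene annotated over 65.3% of its exon bases on the same strand had 0 counts in every library. How the counting treated reads that fit both genes is not given. These 0 counts therefore cannot show how the overlap bears on the level of RPL26, which was not tested.

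RPL37 and RPL35A fell as well. RPL37, a zinc finger protein of the large subunit at chr5:40825262-40835222, had 582, 566 and 639 CPM in siERRα libraries, against 765, 839 and 763 CPM in siNC libraries (log2 fold change -0.41 ± 0.06, edgeR adjusted p = 5.71e-05). RPL35A, at chr3:197950190-197956610 and mutated in some patients with Diamond-Blackfan anemia, had 199.8, 219.6 and 219 CPM in siERRα libraries, against 259, 263 and 254 CPM in siNC libraries (log2 fold change -0.28 ± 0.06, edgeR adjusted p = 0.00176). For both genes the groups did not overlap. RPL26, RPL37 and RPL35A were the 3 members whose call held under all 19 alternative settings.

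The other calls were smaller and less stable. RPL8 had 1865, 1789 and 1907 CPM in siERRα libraries, against 2063, 2293 and 2075 CPM in siNC libraries (log2 fold change -0.21 ± 0.06, edgeR adjusted p = 0.0134), and RPS29, a zinc finger protein of the small subunit, had 105, 110.3 and 129 CPM in siERRα libraries, against 132, 141 and 123 CPM in siNC libraries (log2 fold change -0.20 ± 0.07, edgeR adjusted p = 0.0475). RPS29 overlapped between the groups and lost its call in 8 of 19 settings, and RPL8 lost it without siNC replicate 2 (edgeR adjusted p = 0.0725). In the other direction, RPL30, a large-subunit protein that binds a kink-turn in ribosomal RNA, had 419.7, 426 and 419.9 CPM in siERRα libraries, against 356, 375 and 349 CPM in siNC libraries (log2 fold change 0.23 ± 0.06, edgeR adjusted p = 0.00562). RPS27 had 876, 886 and 898 CPM in siERRα libraries, against 800.3, 773 and 754 CPM in siNC libraries (log2 fold change 0.19 ± 0.05, edgeR adjusted p = 0.0129). Both rises were lost without siNC replicate 3 (edgeR adjusted p = 0.0576 for RPL30 and 0.104 for RPS27), and RPS27 was also lost without siERRα replicate 3.

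The proteins of the ribosomal stalk, which recruits elongation factors, did not pass the test after knockdown. RPLP0 averaged 1917 ± 84.3 CPM in siERRα libraries and 1853 ± 113 CPM in siNC libraries (SD, n = 3 each, edgeR adjusted p = 0.608). The values for RPL5 were 504 ± 33.0 CPM with siERRα and 517 ± 12.5 CPM in siNC libraries (edgeR adjusted p = 0.724), and for RPL11 431 ± 5.37 CPM with siERRα and 446 ± 7.27 CPM in siNC libraries (edgeR adjusted p = 0.552). RPS6, the substrate of S6 kinase, RPS14, lost in the 5q- syndrome, and RPS19, the gene most often mutated in Diamond-Blackfan anemia, had log2 fold changes of 0.09, -0.03 and 0.01 for siERRα against siNC, none called. The remaining fixed members RPSA, RPS4X, RPS27A (made as a fusion with ubiquitin), RPL3, RPL10, RPL22 and RPL41 were not called either, with log2 fold changes between -0.19 (RPL22) and 0.08 (RPL41). With the members' own sum as library size, 2 members were higher and 4 lower with siERRα, against 8.46% and 10.0% of all genes. These were RPS27 and RPL30, and RPL26, RPL37, RPL35A and RPL8.

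The second comparison asked what KIT inhibition did to the same genes. Here most members had a log2 fold change above zero, mostly a small one. Of 77 members, 29 were higher and 3 lower in imatinib than in siNC libraries, where 41.7% of all genes were called, 21.4% higher and 20.3% lower. Among genes of at least 100 CPM, 28.0% were called higher and 29.1% lower. In this fit of all libraries with TMM scaling, the share of members called higher (37.7%) was above both backgrounds, and the share called lower (3.90%) below both. The median log2 fold change was 0.12 over members and 0.00 over all genes, and 65 of 77 members were above zero. The imatinib libraries lay wholly above siNC for 31 members and wholly below for 3, where 26.2% of all genes lay above and 25.8% below.

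The changes called higher were small in size. The log2 fold changes of the 29 members called higher ran from 0.14 (RPS6) to 0.62 (RPS10), with a median of 0.23. Member levels were also unequal between libraries, since the median difference of members from the siNC mean was 0.04, 0.20 and 0.10 (log2) in imatinib replicates 1, 2 and 3, against -0.01, 0.05 and -0.04 in siNC replicates 1, 2 and 3. Imatinib replicate 1 lay below siNC replicate 2, so the groups overlapped on this median, which was not tested. Members share these libraries and are not replicates. Without imatinib replicate 2 the count of members higher was 20 and the median log2 fold change 0.07, and without siNC replicate 3 the count was 19. All genes called in either direction numbered 6583 and 5794 in these settings, against 7072 with all libraries. With total-count scaling, which moved the median of all genes to -0.06, 20 members were higher and 4 lower and the member median was 0.06. All genes called numbered 7377 there. Shares of all genes by direction were not computed under these settings, so whether the member share stays above them is not known.

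**Figure D2:**
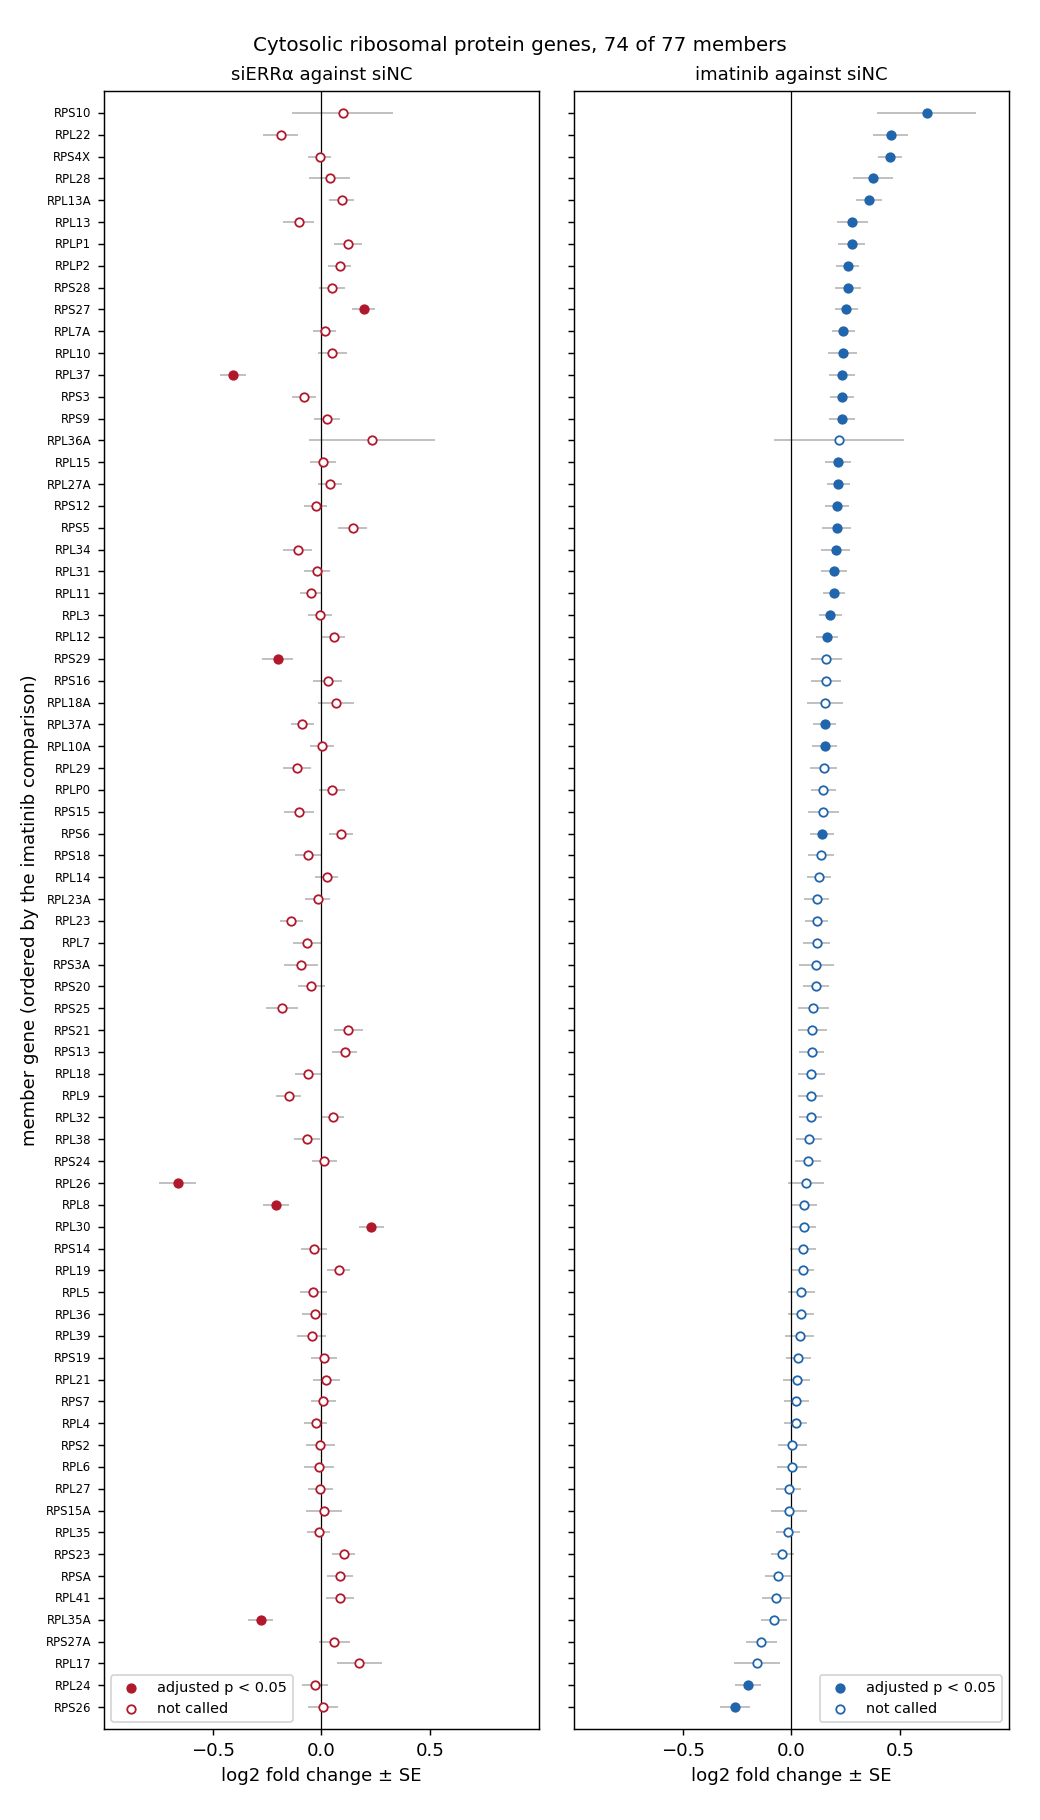
Log2 fold change ± SE of 74 of the 77 member genes, siERRα against siNC on the left and imatinib against siNC on the right, in 1 gene order set by the imatinib comparison. Filled points passed an edgeR adjusted p of 0.05, which holds for 7 of these on the left and for 29 on the right, 27 higher and 2 lower. The 3 members not drawn are not reported here by name, and all 3 were called with imatinib, 2 higher and 1 lower.

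RPS4X had the lowest adjusted p of the 77 members with imatinib. This small-subunit protein is coded on the X chromosome, at chrX:72255679-72277248. It had 1212, 1355 and 1246 CPM in imatinib libraries, against 927, 949 and 907 CPM in siNC libraries (log2 fold change 0.45 ± 0.05, edgeR adjusted p = 1.87e-06). The groups were far apart, and over the 19 settings the adjusted p was never above 5.79e-05. After knockdown RPS4X had 889, 925 and 952 CPM, on both sides of the siNC values.

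RPL22 and RPL13A rose next. RPL22, a large-subunit protein with a paralog, RPL22L1, that can replace it, had 41.9, 54.0 and 46.3 CPM in imatinib libraries, against 35.3, 33.7 and 34.4 CPM in siNC libraries (log2 fold change 0.46 ± 0.08, edgeR adjusted p = 0.000155). RPL13A, which also serves in translational silencing outside the ribosome, had 858, 980.0 and 942 CPM in imatinib libraries, against 702, 767 and 701 CPM in siNC libraries (log2 fold change 0.36 ± 0.06, edgeR adjusted p = 6.37e-05). Both held in all 19 settings. RPL28 had 649.8, 643 and 694 CPM in imatinib libraries, against 459, 582 and 491 CPM in siNC libraries (log2 fold change 0.38 ± 0.09, edgeR adjusted p = 0.00456), and RPL13 had 1563, 1733 and 1773 CPM in imatinib libraries, against 1291, 1578 and 1303 CPM in siNC libraries (log2 fold change 0.28 ± 0.07, edgeR adjusted p = 0.00398). RPL13 overlapped between the groups. RPS10, nominally the member that rose most, had only 2.95, 1.94 and 2.24 CPM in imatinib libraries, against 1.61, 1.60 and 1.43 CPM in siNC libraries (log2 fold change 0.62 ± 0.23, edgeR adjusted p = 0.0346), and lost its call in 6 of 19 settings.

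Of the stalk, both acidic proteins rose. RPLP2 had 414, 454 and 436 CPM in imatinib libraries, against 357, 378 and 354 CPM in siNC libraries (log2 fold change 0.26 ± 0.05, edgeR adjusted p = 0.000568). RPLP1, its dimer partner, had 661, 639 and 648 CPM in imatinib libraries, against 502, 594 and 513 CPM in siNC libraries (log2 fold change 0.28 ± 0.06, edgeR adjusted p = 0.00172). RPLP0, which anchors them, averaged 2053 ± 119 CPM in imatinib libraries and 1853 ± 113 CPM in siNC libraries and did not pass the test (edgeR adjusted p = 0.0531). That RPLP1 and RPLP2 passed and RPLP0 did not was not itself tested as a difference.

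In the 5S particle, RPL11 rose with 487, 531 and 513 CPM in imatinib libraries, against 451, 448 and 437 CPM in siNC libraries (log2 fold change 0.20 ± 0.05, edgeR adjusted p = 0.00435). RPL5 averaged 534 ± 43.6 CPM in imatinib libraries and 517 ± 12.5 CPM in siNC libraries (edgeR adjusted p = 0.598). RPL3, a protein of the peptidyl transferase center, and RPL10, which joins the large subunit last, rose by 0.18 and 0.24 (log2, edgeR adjusted p = 0.0118 and 0.00845). RPL10 lost its call without imatinib replicate 2, and RPL3 lost it there, without siNC replicate 3 and with total-count scaling. RPS6 was the weakest call, with 822, 919 and 818 CPM in imatinib libraries, against 761, 789 and 769 CPM in siNC libraries (log2 fold change 0.14 ± 0.06, edgeR adjusted p = 0.0493), and it lost the call in 12 of 19 settings. RPS14, RPS19, RPSA, RPS27A and RPL41 were not called, with log2 fold changes of 0.06, 0.03, -0.06, -0.14 and -0.07 for imatinib against siNC.

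The median was above zero in both subunits. For the counts that follow, 21.4% of all tested genes were higher with imatinib and 20.3% lower. Among genes of at least 100 CPM, 28.0% were higher and 29.1% lower. Of 46 large-subunit members, 18 were higher (39.1%) and 1 lower (median log2 fold change 0.12). Of 31 small-subunit members, 11 were higher (35.5%) and 2 lower (median 0.12). Of the 21 members with no shared 100-base stretch, 10 were higher, with 0.14 as the median log2 fold change, and the 3 members called lower were outside this set. Members with CTTTC or CTTTT at the start had a median of 0.15 (18 higher and 1 lower of 40), and those without it 0.13 (7 higher and 1 lower of 22). Across the 77 members, Spearman's rho of the imatinib log2 fold change was 0.16 with GC content, 0.17 with canonical length, -0.14 with the share of sequence held in common with other genes, and 0.14 with the level in siNC, as a description over genes that share libraries.

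Of the 29 members called higher, 18 kept their call in all 19 settings. Beside RPS4X, RPL22, RPL13A, RPL28, RPL13, RPLP1, RPLP2 and RPL11 they included RPL7A, RPL27A, RPL37, RPS3, RPS9, RPS12, RPS27 and RPS28. RPL37 had 886, 976 and 920.3 CPM in imatinib libraries, against 765, 839 and 763 CPM in siNC libraries (log2 fold change 0.23 ± 0.06, edgeR adjusted p = 0.00399). RPL37 was thus called in both comparisons with siNC, lower with siERRα and higher with imatinib. RPS27 was the other member called in both, and was higher in each, with 898, 991 and 885 CPM in imatinib libraries. The 2 comparisons share the siNC libraries.

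The 3 members that fell with imatinib included RPS26 and RPL24. RPS26 contacts mRNA at the exit channel of the small subunit, and had 205, 208 and 231 CPM in imatinib libraries, against 247, 278 and 245 CPM in siNC libraries (log2 fold change -0.26 ± 0.07, edgeR adjusted p = 0.00469). It held in all 19 settings, though 12 other annotated genes share 100-base stretches with it. RPL24, which forms a bridge between the subunits, had 341, 402 and 366 CPM in imatinib libraries, against 435, 417 and 419.8 CPM in siNC libraries (log2 fold change -0.20 ± 0.06, edgeR adjusted p = 0.0126), and lost its call without imatinib replicate 1 or siNC replicate 1. Relative to the members' own sum, 4 members were higher (RPS4X, RPL22, RPL28 and RPL13A) and 9 lower, where 12.6% and 29.8% of all genes were called on that scale. Among the 9 were RPS26, RPL24, RPL17, RPS27A, RPL35A, RPL41, RPSA and RPS23.

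**Figure D3:**
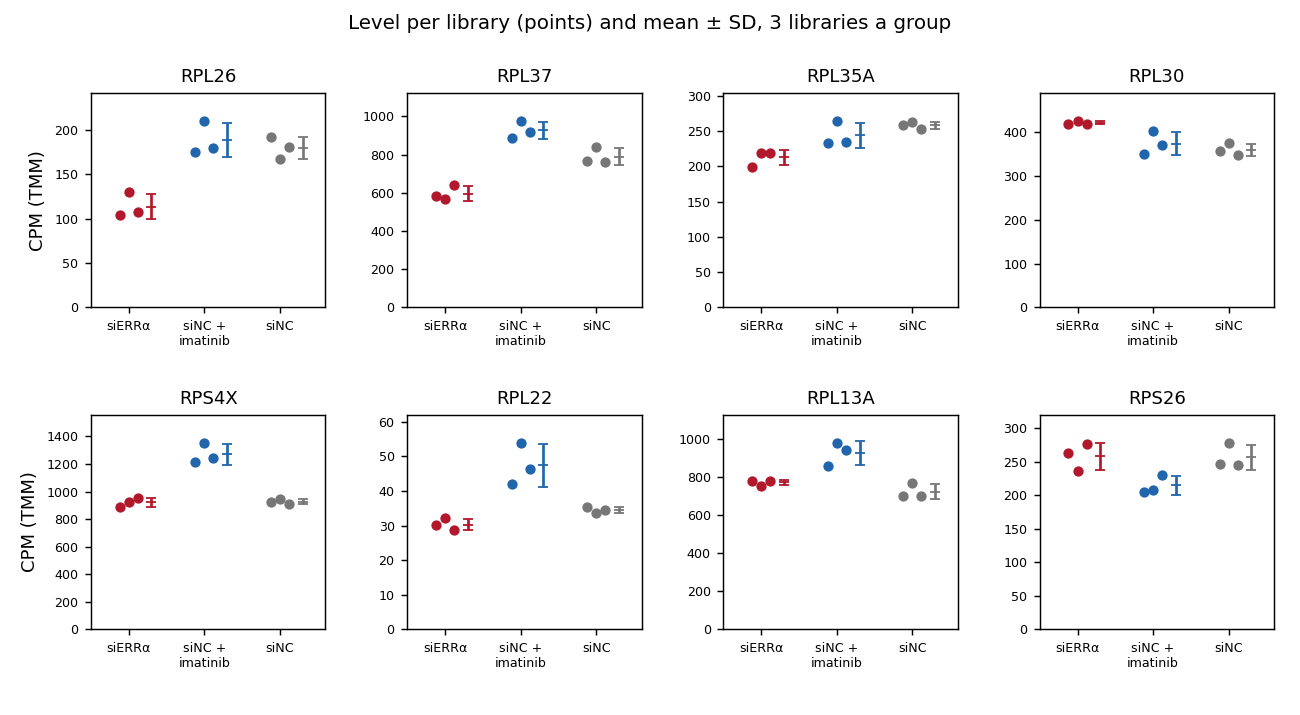
TMM-normalized CPM of 8 member genes in each library (points) and mean ± SD of 3 libraries, for siERRα, siNC with imatinib and siNC; axes start at 0. RPL26, RPL37 and RPL35A are low in the siERRα libraries, RPS4X, RPL22 and RPL13A are high and RPS26 is low in the imatinib libraries, and RPL30 is high in the siERRα libraries.

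The third comparison set the knockdown against the drug. Its 2 groups differ in both siRNA and imatinib. It reuses libraries of the first 2 comparisons and is not independent of them. Against siNC the member median was 0.00 with siERRα and 0.12 with imatinib. In siERRα relative to imatinib libraries, 7 members were higher and 39 lower, where 52.2% of all genes were called, 25.6% higher and 26.6% lower, and where 37.9% of genes at 100 CPM or more were higher and 29.8% lower. The median log2 fold change was -0.15 over members and 0.00 over all genes. The siERRα libraries lay wholly above imatinib for 6 members and wholly below for 35, where 28.3% of all genes lay above and 28.6% below. RPL26 (log2 fold change -0.73 ± 0.08, edgeR adjusted p = 7.52e-07), RPL22 (log2 fold change -0.65 ± 0.08, edgeR adjusted p = 1.97e-06), RPL37 (log2 fold change -0.64 ± 0.06, edgeR adjusted p = 4.46e-08) and RPS4X (log2 fold change -0.46 ± 0.05, edgeR adjusted p = 8.04e-07) were the called members lowest in siERRα relative to imatinib. RPS10, under 10 CPM, had a log2 fold change of -0.52 ± 0.23 and was not called (edgeR adjusted p = 0.0595). Of called members RPL13 and RPS29 followed, with log2 fold changes of -0.39 and -0.36 (edgeR adjusted p = 0.00017 and 0.000294).

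Members higher in siERRα than in imatinib libraries included RPL17, RPS26, RPS27A, RPL30, RPL24 and RPS23, which had log2 fold changes between 0.14 (RPS23) and 0.33 (RPL17). RPL17 had 7.50, 7.57 and 7.21 CPM in siERRα libraries, against 5.39, 5.71 and 6.61 CPM in imatinib libraries (log2 fold change 0.33 ± 0.11, edgeR adjusted p = 0.0128). RPL17 is among the 4 members under 10 CPM, and without those 4 the counts were 5 higher and 39 lower, as an alternative chosen after seeing the data. Without imatinib replicate 1, 2 members were higher. Relative to the members' sum, 13 were higher and 9 lower, where 34.6% and 18.1% of all genes were called.

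Ribosome proteins and paralogs outside the symbol rule gave their own pattern. RACK1, a signaling scaffold on the small subunit, averaged 1581 ± 62.7 CPM in imatinib libraries and 1410 ± 112 CPM in siNC libraries (log2 fold change 0.17 ± 0.06, edgeR adjusted p = 0.0451). FAU, which makes RPS30 as a fusion protein, was not called with siERRα (log2 fold change 0.09) or with imatinib (-0.02). Of 7 tested paralogs, 2 were lower (28.6%) and 0 higher with siERRα, against 12.6% and 11.4% of all tested genes. With imatinib 2 were lower and 0 higher, against 20.3% and 21.4% of all tested genes. RPL7L1 averaged 74.6 ± 8.42 CPM with siERRα and 77.4 ± 3.37 CPM with imatinib, against 98.8 ± 2.90 CPM in siNC libraries (edgeR adjusted p = 0.0003 and 0.000522). RPL22L1 was lower with siERRα (log2 fold change -0.24, edgeR adjusted p = 0.0185), and RPL26L1 was lower with imatinib (-0.19, edgeR adjusted p = 0.0107).

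The median of pseudogene rows was above zero with imatinib, as was that of members, but few of these rows were called. Of 1392 rows named as ribosomal protein pseudogenes, 298 were tested, and 29 were higher (9.73%) and 5 lower (1.68%) with imatinib, against 21.4% and 20.3% of all tested genes, with a median log2 fold change of 0.24. With siERRα 1 was higher and 5 lower (median 0.00), against 11.4% and 12.6% of all tested genes. Their summed share of counts was 0.181% ± 0.00407 in imatinib libraries and 0.163% ± 0.0046 in siNC libraries (exact permutation p = 0.1, the smallest possible, n = 3 each). These rows hold sequence in common with the members, so the values are not independent of theirs.

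Most genes that build ribosomes were lower with imatinib. Of 76 ribosome biogenesis factors, 66 were lower (86.8%) and 1 higher with imatinib, against 20.3% and 21.4% of all tested genes, with a median log2 fold change of -0.39. With siERRα 13 were higher (17.1%) and 4 lower (5.26%), against 11.4% and 12.6% of all tested genes (median 0.04). RRP12, an export and maturation factor, averaged 44.8 ± 3.25 CPM in imatinib libraries and 79.9 ± 0.471 CPM in siNC libraries (log2 fold change -0.84 ± 0.06, edgeR adjusted p = 6.06e-09). WDR43 and UTP15, of the small-subunit processome, fell by 0.75 and 0.71 on the log2 scale, and RRS1, needed for 5S particle assembly, fell by 0.97 (edgeR adjusted p = 1.46e-08, 6.52e-08 and 1.62e-08). The 1 factor that rose was UBTF, an activator of RNA polymerase I, at 0.23 (edgeR adjusted p = 0.00667), named after its value was seen.

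**Figure D4:**
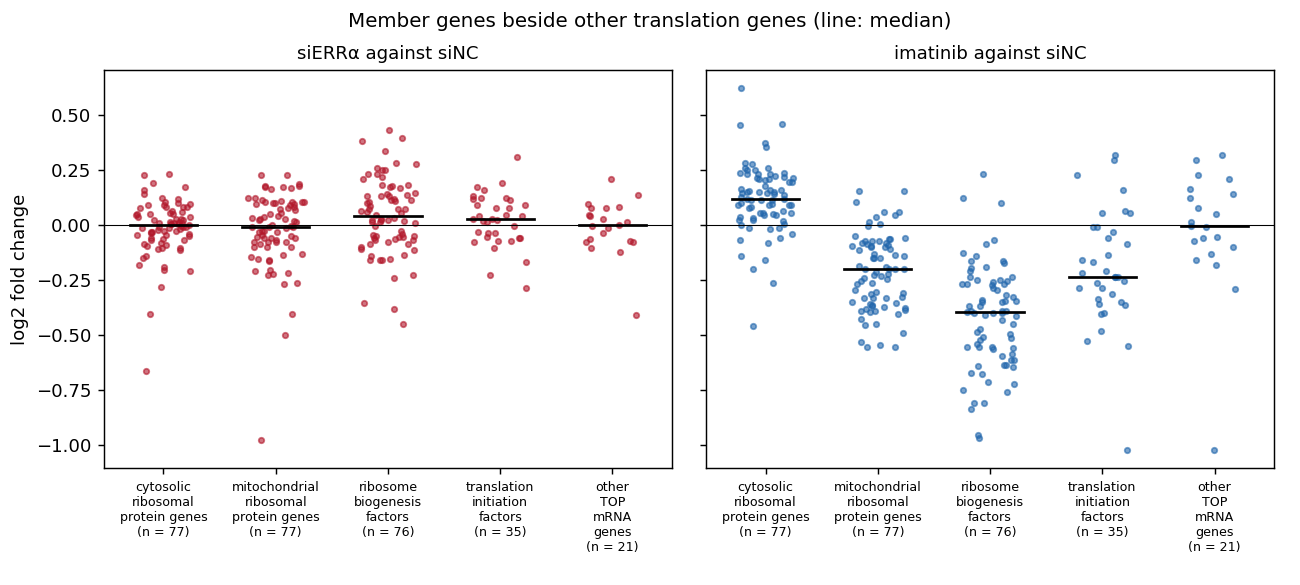
Log2 fold changes of single genes (points) and their median (line) for the cytosolic ribosomal protein genes and 4 other translation gene lists, siERRα against siNC on the left and imatinib against siNC on the right. With imatinib the medians are 0.12 for cytosolic ribosomal proteins, -0.20 for mitochondrial ribosomal proteins and -0.39 for biogenesis factors.

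Other translation genes were mixed with imatinib. Of 77 tested mitochondrial ribosomal protein genes, 41 were lower and 1 higher (median -0.20). Of 35 initiation factors, 21 were lower and 4 higher (median -0.23), among them EIF5, EIF3J, EIF2S2 and EIF2S1, with log2 fold changes of -0.53, -0.55, -0.48 and -0.41. Of 21 tested other genes with TOP mRNAs, 5 were higher and 3 lower (median 0.00), and EIF3F and EIF4B rose by 0.32 and 0.30 (edgeR adjusted p = 0.000183 and 0.000208). Elongation factors split 4 higher and 4 lower of 10. Over all tested genes 21.4% were higher and 20.3% lower, and the median was 0.00.

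With siERRα fewer genes of these lists were called, where 11.4% of all tested genes were higher and 12.6% lower. Of mitochondrial ribosomal protein genes 3 were higher and 9 lower (median -0.01), of initiation factors 3 were higher and 2 lower (median 0.03), and of other TOP genes 1 was higher and 1 lower (median 0.00). Of 10 elongation factors 1 was higher and 4 lower (40%, median 0.07). EEF1A2, a tissue-restricted elongation factor, fell to 5.71 ± 0.232 CPM in siERRα libraries, against 10.7 ± 0.218 CPM in siNC libraries (edgeR adjusted p = 8.38e-07), and the TOP gene HNRNPA1 fell to 678 ± 42.9 CPM in siERRα libraries, against 898 ± 5.61 CPM in siNC libraries (edgeR adjusted p = 2e-05).

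Some regulators of growth and translation were changed by each treatment. MYCN, a driver of ribosome synthesis, had 94.0, 84.5 and 96.7 CPM in siERRα libraries and 32.3, 27.9 and 28.5 CPM in imatinib libraries, against 66.3, 75.4 and 70.9 CPM in siNC libraries (edgeR adjusted p = 0.000753 and 2.35e-10). MYC had 4.32, 3.39 and 2.96 CPM in siERRα libraries and 6.02, 5.63 and 5.77 CPM in imatinib libraries, against 5.26, 4.91 and 5.10 CPM in siNC libraries (edgeR adjusted p = 0.00685 and 0.249). MYCN thus fell with imatinib and rose with siERRα, while MYC fell with siERRα. DEPTOR, an inhibitor of mTOR, averaged 16.3 ± 1.77 CPM in imatinib libraries and 4.95 ± 0.299 CPM in siNC libraries (edgeR adjusted p = 3.02e-10), and DDIT4, another inhibitor of mTOR signaling, averaged 11.1 ± 0.740 CPM in imatinib libraries and 22.4 ± 1.22 CPM in siNC libraries (edgeR adjusted p = 1.36e-08). SESN3, a sestrin, rose in both, with 196 ± 11.4 CPM in siERRα and 138 ± 17.4 CPM in imatinib libraries, against 112 ± 6.42 CPM in siNC libraries. Of 27 tested regulators, 6 were higher and 5 lower with siERRα (22.2% and 18.5%, against 11.4% and 12.6% of all tested genes), and 9 were higher and 8 lower with imatinib (33.3% and 29.6%, against 21.4% and 20.3%).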

How the data were processed

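Polyadenylated RNA of 9 T1 libraries was sequenced by the authors as 100-base read pairs. The submitters' processing notes name STAR 2.7.3a, featureCounts 2.0.1 and the build GRCh38, and the authors deposited raw counts per gene symbol. The sources used here do not give the annotation release, strand setting or treatment of multi-mapped reads. Libraries were grouped by the labels. The members and gene lists were chosen with earlier results of these data known.

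Counts were filtered (filterByExpr, minimum count 10, minimum total 15) and normalized by TMM, and 16976 genes were tested in 1 fit of all 9 libraries with the robust quasi-likelihood test of edgeR 4.0.16 (R 4.3.3), with Benjamini-Hochberg adjustment over all genes and a threshold of 0.05. Depth was 37527236 to 49363002 counts per library. SEs come from the fold change and its F. Shares were compared by exact permutation tests. Named genes were a fixed set of 15 members, the 6 highest and 6 lowest log2 fold changes of each comparison, ESRRA, MYC, ribosome proteins outside the rule and paralogs, and up to 4 genes of smallest p in each other list. Gene positions and lengths came from GENCODE release 44 and start-site sequences from RefSeq, both on GRCh38, joined by symbol. The test was tested on simulated data. Alternatives were other scalings, DESeq2 1.42.0, limma-voom 3.58.1, other filters, 6 libraries, a replicate block and leaving out each library. Protein sequences were not used here, and a few genes are counted but not reported here by name.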

Additional observations from a re-analysis of the deposited data

How the results depend on the processing

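Over 1406 values of named members under alternative settings, 1308 kept their direction and their side of the threshold or were never called, 66 lost the call, 32 gained one, and none that was called changed sign. The median log2 fold change of members with imatinib was 0.0567 with total-count scaling. For siERRα against siNC, members lower numbered 8 with total-count scaling, with upper-quartile scaling and with only the 6 libraries compared. Leaving out 1 library at a time gave 0 to 4 members higher and 3 to 9 lower for siERRα against siNC, with 0 higher without siNC replicate 3, 4 higher and 3 lower without siNC replicate 2, 1 higher without siERRα replicate 3, 8 lower without siERRα replicate 2 and 9 lower without imatinib replicate 2. It gave 19 to 35 higher and 1 to 4 lower for imatinib against siNC, and 2 to 8 higher and 31 to 40 lower for siERRα against imatinib. All genes called in either direction ran from 2910 to 4401 for siERRα against siNC. They ran from 5794 to 7780 for imatinib against siNC and from 8203 to 8934 for siERRα against imatinib. In that last comparison the count of members higher was 2 without imatinib replicate 1, 3 without imatinib replicate 3 and 4 without siERRα replicate 2. The 10 highest members per length shared 7 genes with the exon-union scale and 5 with the coding-length scale. The cause of these shifts was not tested, beyond the smaller number of libraries. Library numbers were not taken to pair the samples. Deviations of same-numbered libraries correlated between -0.0996 and 0.147. Differently numbered libraries were not compared, so these values cannot show whether the samples are paired. With the replicate block, siERRα against siNC gave 2 members higher and 4 lower, imatinib against siNC 26 higher and 3 lower, and siERRα against imatinib 9 higher and 37 lower. Calls of members near an adjusted p of 0.05 rest on 3 libraries a group, and the members under 10 CPM are limited by depth.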

Other observations

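Host genes of small nucleolar RNAs, which guide modification of ribosomal RNA, were lower with imatinib in 9 and higher in 2 of 17 tested cases (52.9% and 11.8%, against 20.3% and 21.4% of all tested genes, median log2 fold change -0.19). With siERRα 5 were higher and 2 lower (29.4% and 11.8%, against 11.4% and 12.6% of all tested genes, median 0.13). SNHG1 averaged 37.9 ± 3.38 CPM in siERRα and 15.3 ± 0.746 CPM in imatinib libraries, against 28.9 ± 0.899 CPM in siNC libraries (edgeR adjusted p = 0.000654 and 2.59e-08). GAS5, itself a TOP transcript, averaged 54.6 ± 6.22 CPM in imatinib libraries and 91.0 ± 3.45 CPM in siNC libraries (edgeR adjusted p = 1.41e-07). SNHG15 and CYTOR fell by 0.96 and 0.90 on the log2 scale with imatinib.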
